A study of Homo sapiens with 6 samples.

Results

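Hypoxia-response and glycolysis genes were followed in SW480 cells, an established line from a human colorectal adenocarcinoma, that overexpressed either POU5F1B or green fluorescent protein (GFP). The 42 genes were taken as a list of symbols that cover glycolysis (21 genes) and other targets of the hypoxia response (21 genes), and each symbol matched 1 of the 63677 Ensembl identifiers in the count tables. Of the 42, 39 passed the filter on low counts and were tested among 14286 genes. BNIP3, PLOD2 and LOX did not pass, with 0 to 3, 0 to 3 and 0 to 4 counts per library.

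All cells were transduced with a vector in which doxycycline drives the insert, GFP in the control group and POU5F1B in the other, and both groups received 1 µg/mL doxycycline for 72 h. Polyadenylated RNA was sequenced from 3 libraries per group, named here by the replicate number in their titles. The labels do not say whether the replicates of a group were separate cultures, so the p-values measure the spread between these libraries, which may be technical. POU5F1B is a retrogene copy of the pluripotency gene POU5F1. Per the study's methods, transduced SW480 cells were kept under puromycin selection, and no isolation of clones was described.

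Cells sense oxygen through prolyl hydroxylases that mark the alpha subunits of the hypoxia-inducible factors (HIF) for destruction through the VHL ubiquitin ligase. When oxygen is short, HIF1A or EPAS1 (HIF-2 alpha) pairs with ARNT and binds a short core motif near target genes, which include most enzymes of glycolysis, glucose and lactate transporters, the angiogenic factor VEGFA and enzymes that modify collagen. Many cancer cells, colorectal ones among them, run glycolysis at a high rate even with oxygen present.

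The libraries held 10767947 to 12787637 counts. POU5F1B was at 0.506, 0.381 and 0.087 CPM (counts scaled to a common library size, with TMM factors) in GFP replicates 1, 2 and 3, and at 1182, 1056 and 121 CPM in POU5F1B replicates 1, 2 and 3, so each library matched its label and replicate 3 was the lowest of its group. The replicate 3 libraries stood apart: the biological coefficient of variation between GFP replicates 1 and 2 was 8.03%, whereas GFP replicate 3 differed from them by 44.3% and 40.9%, and POU5F1B replicate 3 differed from its group by 21.1% and 24.1%, against 9.84% between POU5F1B replicates 1 and 2. Between the groups, GFP replicates 1 and 2 differed from the POU5F1B libraries by 25.3% to 30.1%, less than GFP replicate 3 differed from its own group. Results are therefore given over all 6 libraries and over replicates 1 and 2 only. Of 12 markers of colorectal epithelium, 11 had more than 3 counts in at least 1 library, with a summed level of 6739 to 9904 CPM in GFP and 8187 to 9246 CPM in POU5F1B libraries, but KRT20 stayed at or below 1.45 CPM and CDX1 at or below 0.174 CPM. KRT8 and KRT18 carried most of that sum, and single markers moved with the groups or with the replicate 3 libraries. CDH1 was higher in every POU5F1B library (log2 fold change 1.72 ± 0.36, SE), and EPCAM was 3.66-fold higher in POU5F1B over replicates 1 and 2. EPCAM and VIL1 were 5.89-fold and 11.4-fold higher in GFP replicate 3 than in the other GFP libraries. POU5F1B replicate 3 stood at 0.775-fold (EPCAM) and 2.76-fold (VIL1) of the rest of its group. LGR5 had 239 counts in GFP replicate 3 and 79 in POU5F1B replicate 3, against at most 1 in any other library. Blood markers summed to at most 0.174 CPM in GFP and 0.25 CPM in POU5F1B libraries. Fibroblast markers summed to 27.4 to 171 CPM in GFP libraries and 13.4 to 22.6 CPM in POU5F1B libraries, chiefly COL1A1 and PDGFRB. COL1A1 was lower in every POU5F1B library (log2 fold change -3.22 ± 1.09, SE, adjusted p = 0.34, voom), and COL3A1 had no count in any library. The endothelial markers found (3 of 4) summed to at most 6.07 and 6.53 CPM. The part of these markers in the results was not tested, and in a bulk sample fewer cells of a type and less RNA per cell cannot be told apart.

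To compare genes with each other, levels were divided by the length of the merged exons. The order of the members was led by enzymes of glycolysis, from its lower and upper parts, and by lactate dehydrogenase. GAPDH, the glyceraldehyde 3-phosphate dehydrogenase, had the highest level of all 42, at 1443 ± 88.3 CPM per kb in GFP and 1528 ± 78.3 CPM per kb in POU5F1B libraries (SD, n = 3). ENO1 (enolase), TPI1 (triose phosphate isomerase) and LDHB and LDHA (lactate dehydrogenase subunits) followed, with group means from 260 to 442 CPM per kb, and the mean ± SD ranges of neighbours in this order overlapped in GFP libraries. The glucose transporters SLC2A3 (GLUT3) and SLC2A1 (GLUT1) stood among the glycolytic enzymes, at 188 ± 80.3 and 130 ± 17 CPM per kb in GFP libraries and at 216 ± 5.74 and 202 ± 25.7 CPM per kb in POU5F1B libraries. VEGFA and the carbonic anhydrase CA9 were low per kb in both groups. VEGFA had 1.21 ± 0.585 and 2 ± 0.108 CPM per kb over 14.4 kb of merged exons. CA9 had 0.818 ± 0.264 and 0.984 ± 0.404 CPM per kb. Not all hypoxia members were low: BHLHE40 had 23.08 ± 5.55 and 39.35 ± 10.2 CPM per kb, and BNIP3L had 15.4 ± 4.25 and 15.9 ± 4.09 CPM per kb.

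**Figure D1:**
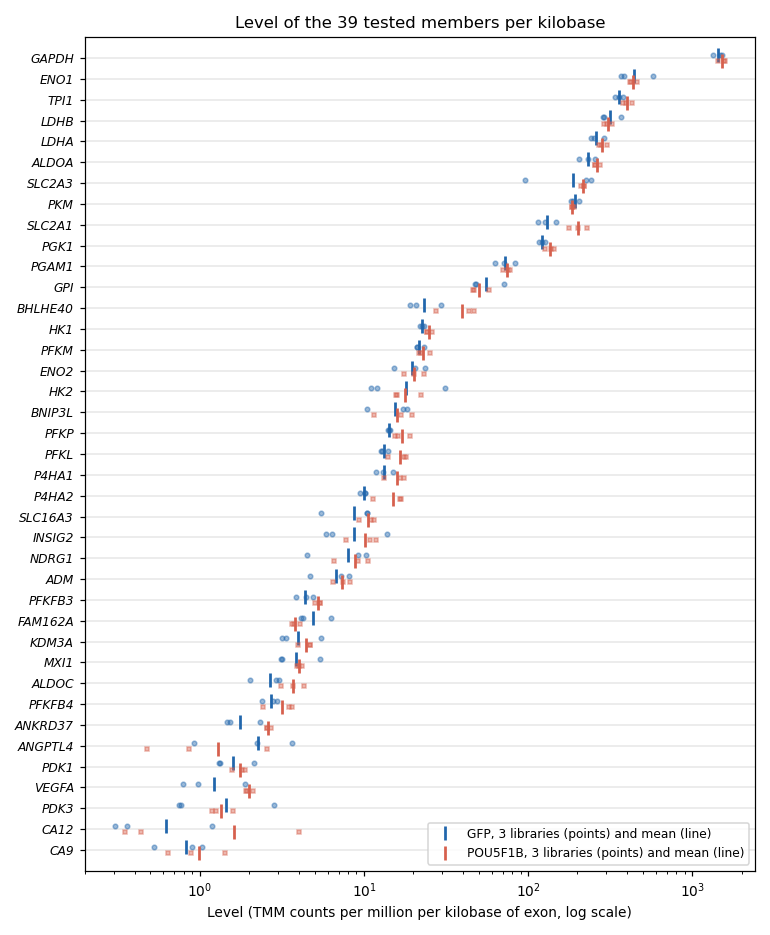
Level of each of the 39 tested members in TMM CPM per kilobase of exon, on a log scale, with points for the 3 GFP and 3 POU5F1B libraries and a line for each group mean. Glycolytic enzymes and both glucose transporters fill the upper part, GAPDH being the highest, and CA9 and CA12 lie at the bottom, where the points of a group scatter most.

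To ask whether POU5F1B overexpression was accompanied by a shift of these genes, each was compared between the groups by voom and the moderated test of limma, with Benjamini-Hochberg adjustment over all 14286 genes. The threshold, taken from the study's methods, asked for an adjusted p-value below 0.05 together with a difference above 2-fold. No member passed it over the 6 libraries, and neither did any other gene (0% of the genes tested), POU5F1B itself included (log2 fold change 10.73 ± 2.78, SE; adjusted p = 0.252). At an unadjusted p-value under 0.05, 5 members were higher in POU5F1B libraries (12.8% of the 39 tested, against 6.07% of all genes) and 0 were lower (5.82% of all genes). edgeR's quasi-likelihood test put 0 genes past the threshold and DESeq2 put 232, among them 0 members. The adjusted p-values of the members in the voom test ran from 0.21 to 0.985.

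Most members nonetheless had a higher mean in POU5F1B libraries. The log2 fold change (POU5F1B minus GFP) was above 0 for 34 members and below 0 for 5, so 87.2% of the tested members had a positive value, against 46.9% of all tested genes. Their median was 0.19, with a range from -0.95 to 0.83, beside a median of -0.02 over all genes. The glycolysis members had a median of 0.14, with 18 of 21 above 0, and the other hypoxia members had a median of 0.23, with 16 of 18 above 0. This last median was 0.42 without GFP replicate 3 and 0.39 over replicates 1 and 2. The levels of the groups did not overlap, with all 3 POU5F1B libraries higher, in 8 members (20.5% of 39, against 10.2% of all genes), namely VEGFA, SLC2A1, HK1, PFKP, PFKFB3, ALDOC, P4HA2 and ANKRD37. They did not overlap in the other direction in 1 member, FAM162A (2.56% of 39, against 9.24% of all genes). The members were chosen as a pathway and share regulators, so these shares are a description and were not tested as a set. They were also chosen with earlier results of these data known, and the part of that choice in these shares was not tested. Outside the members, 44.4% of the 27 other hypoxia-inducible genes tested had a positive value, with a median of -0.06. Of the 29 other genes of glucose metabolism tested, 48.3% had a positive value, with a median of -0.05.

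With replicates 1 and 2 only, 30 members were above 0 and 9 below, and their median was 0.21 against -0.01 over all genes. VEGFA was the single member past the threshold there (2.56% of 39, against 3.21% of all genes higher), and no member was past it in the lower direction (5.15% of all genes). By the adjusted p-value alone, 12 members were higher (30.8% of 39, against 14.1% of all genes) and 0 lower (15.5% of all genes). These were SLC2A1, HK2, PFKP, PFKFB4, LDHA, PDK3, VEGFA, P4HA1, P4HA2, KDM3A, BHLHE40 and INSIG2, with log2 fold changes from 0.23 to 1.20.

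**Figure D2:**
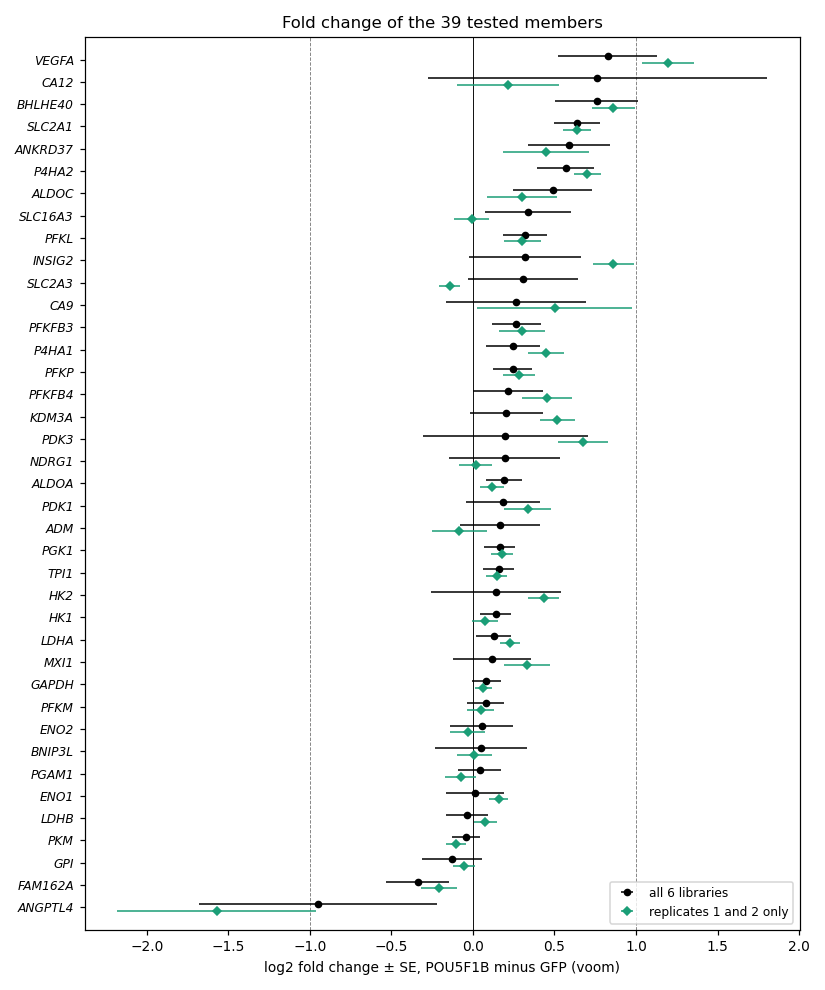
Log2 fold change with its standard error for the 39 tested members by voom, over all 6 libraries (black) and over replicates 1 and 2 only (green), ordered by the former; dashed lines mark a 2-fold change. Most values lie to the right of 0, VEGFA is the one member beyond 2-fold on that side with replicates 1 and 2 (log2 fold change 1.20), and the error bars of INSIG2, PDK3, HK2 and CA12 are much shorter without the replicate 3 libraries.

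Glucose entry holds the transporters GLUT1 and GLUT3 and the hexokinases, which trap glucose in the cell as its 6-phosphate. SLC2A1 (ENSG00000117394, GRCh37 chr1:43391024-43424564, minus strand) had the smallest p-value of all members and ranked 195 of 14286 genes. Its counts were 11656, 10939 and 8751 in GFP replicates 1, 2 and 3 and 19165, 14358 and 14020 in POU5F1B replicates 1, 2 and 3. Every POU5F1B library was above every GFP library, and replicate 3 was the lowest in both groups. The means were 859 ± 112 and 1335 ± 170 CPM (SD, n = 3), a log2 fold change of 0.64 ± 0.14 (SE), with an unadjusted p = 0.00286 and an adjusted p = 0.21 in the voom test. Over replicates 1 and 2 the log2 fold change was 0.64 as well, with an adjusted p = 0.000169 in the voom test but under 2-fold.

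The other transporter behaved otherwise. SLC2A3 had 20900, 21514 and 8002 counts in GFP libraries and 20168, 16361 and 19108 counts in POU5F1B libraries. GFP replicate 3 alone was low, 2.44-fold under the mean of GFP replicates 1 and 2 in CPM, and the 5 remaining libraries lay between 1516 and 1761 CPM. The log2 fold change was 0.31 ± 0.34 (SE) over all libraries and -0.14 over replicates 1 and 2 (adjusted p = 0.752 and 0.11, voom), so its direction depended on that library. SLC2A1 accordingly made up 38, 35.8 and 54.5% of the level per kb of the pair in GFP libraries and 51, 49 and 44.6% in POU5F1B libraries. These shares overlapped (42.8 ± 10.2% against 48.2 ± 3.3%, exact two-sided permutation p = 0.4, 0.88 adjusted over the 11 gene families compared). HK1, the broadly expressed hexokinase, had 155, 160 and 151 CPM in GFP and 167, 167 and 178 CPM in POU5F1B libraries, a narrow separation with a log2 fold change of 0.14 ± 0.10 (SE). HK2, the hypoxia-inducible hexokinase, had 71.2, 65.8 and 184 CPM in GFP and 93.7, 92.5 and 131 CPM in POU5F1B libraries. Its highest library was GFP replicate 3, and the log2 fold change was 0.14 ± 0.40 (SE) over all libraries but 0.43 ± 0.10 over replicates 1 and 2 (adjusted p = 0.00465, voom).

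Upper glycolysis turns glucose 6-phosphate into triose phosphates, and 8 of its 9 members had a positive log2 fold change. PFKL, the liver-type phosphofructokinase, catalyses the committed step. It had 1365, 1483 and 1433 counts in GFP libraries and 2042, 1341 and 1892 counts in POU5F1B libraries. In CPM, POU5F1B replicate 2 (124) lay just under GFP replicate 3 (125), so the groups overlapped by 1 library; the log2 fold change was 0.32 ± 0.14 (SE), with an unadjusted p = 0.0498 and an adjusted p = 0.42 in the voom test. The platelet-type enzyme PFKP had 1338, 1460 and 1259 counts in GFP and 1898, 1360 and 1451 counts in POU5F1B libraries. On the CPM scale these groups did not overlap (110 to 113 against 121 to 149), and the log2 fold change was 0.24 ± 0.12 (SE; adjusted p = 0.476, voom). PFKM, the muscle type, had a log2 fold change of 0.08.

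PFKFB3 and PFKFB4 make fructose 2,6-bisphosphate, the strongest activator of phosphofructokinase. PFKFB3 had 279, 392 and 313 counts in GFP and 420, 357 and 367 counts in POU5F1B libraries. The CPM of the groups were close but separate, at 23.5 to 29.9 and 30.6 to 33.1, with a log2 fold change of 0.26 ± 0.15 (SE; adjusted p = 0.527, voom). PFKFB4 had a log2 fold change of 0.21 over all libraries and 0.45 over replicates 1 and 2 (adjusted p = 0.0428 in that voom fit). Among the aldolases, ALDOC had 94, 100 and 61 counts in GFP and 143, 88 and 116 counts in POU5F1B libraries. It did not overlap in CPM either (5.31 to 7.92 against 8.16 to 11.2), with a log2 fold change of 0.49 ± 0.24 (SE; adjusted p = 0.483, voom), but it supplied at most 1.54% of the aldolase level per kb in any library, and ALDOA, the main aldolase here, had a log2 fold change of 0.19.

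TPI1, the most abundant member of the upper group per kb, had 12145, 12734 and 10502 counts in GFP and 13584, 12486 and 12264 counts in POU5F1B libraries. The ranges met, 914 to 1023 CPM against 1021 to 1157 CPM, and the log2 fold change was 0.16 ± 0.10 (SE). Counts in annotated TPI1 pseudogenes were 2.53% of the sum of gene and pseudogenes. GPI, which interconverts glucose and fructose 6-phosphate, was the exception to the sign of this group. It had 6016, 6776 and 8725 counts in GFP and 6267, 5426 and 7378 counts in POU5F1B libraries, GFP replicate 3 being the highest, and its log2 fold change was -0.13 ± 0.18 (SE) and +0.05 without GFP replicate 3.

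Lower glycolysis, from triose phosphate to pyruvate, had a median log2 fold change of 0.05. GAPDH had 42903, 46444 and 36960 counts in GFP and 48045, 40554 and 41369 counts in POU5F1B libraries. The ranges overlapped (3216 to 3615 CPM against 3444 to 3778 CPM), with a log2 fold change of 0.08 ± 0.09 (SE; adjusted p = 0.744, voom). PKM, the pyruvate kinase whose M2 form prevails in many tumours, had 20872, 21266 and 17969 counts in GFP and 20210, 17032 and 19525 counts in POU5F1B libraries, at a log2 fold change of -0.04 ± 0.09 (SE). The libraries counted whole genes, so its M1 and M2 splice forms were not separated. Of the remaining members, PGK1 (phosphoglycerate kinase) had a log2 fold change of 0.16, PGAM1 (phosphoglycerate mutase) 0.04, the neuronal enolase ENO2 0.05 and ENO1 0.01. ENO1 was highest in GFP replicate 3, at 2988 CPM against 1912 to 2414 CPM in the other 5 libraries. All 21 glycolysis members together took 1.67, 1.58 and 1.62% of the scaled library in GFP replicates 1, 2 and 3 and 1.76, 1.76 and 1.72% in POU5F1B replicates 1, 2 and 3, a sum in which GAPDH and ENO1 weigh most. The difference in mean CPM was largest for SLC2A1, with 859 in GFP and 1335 in POU5F1B libraries. GAPDH had 3456 and 3660 CPM, SLC2A3 had 1365 and 1564 CPM, its GFP mean lowered by replicate 3, and ENO1 had 2303 and 2275 CPM.

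Pyruvate is either reduced to lactate by lactate dehydrogenase or enters mitochondria, a step that pyruvate dehydrogenase kinases (PDK) block. LDHB had 10280, 11130 and 12705 counts in GFP and 10940, 10445 and 10796 counts in POU5F1B libraries, with a log2 fold change of -0.04 ± 0.13 (SE). LDHA, the subunit that HIF induces, had a log2 fold change of 0.13 ± 0.10 (SE) over all libraries and 0.23 over replicates 1 and 2 (adjusted p = 0.0149 in that voom fit). The share of LDHA in the level per kb of both subunits was 46.3, 45.8 and 43.9% in GFP and 49.2, 48.1 and 47.2% in POU5F1B libraries. The groups did not overlap (45.3 ± 1.3% against 48.2 ± 1.03%), and the exact two-sided permutation p of 0.1 is the smallest that 3 against 3 libraries can give; adjusted over the families it was 0.55. PDK1 had a log2 fold change of 0.18. PDK3 had 13, 13.5 and 49.2 CPM in GFP and 22, 20.6 and 27.6 CPM in POU5F1B libraries, so that GFP replicate 3 was 3.72-fold above the other GFP libraries; the log2 fold change was 0.20 ± 0.50 (SE) over all libraries and 0.67 ± 0.15 over replicates 1 and 2 (adjusted p = 0.00586, voom).

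**Figure D3:**
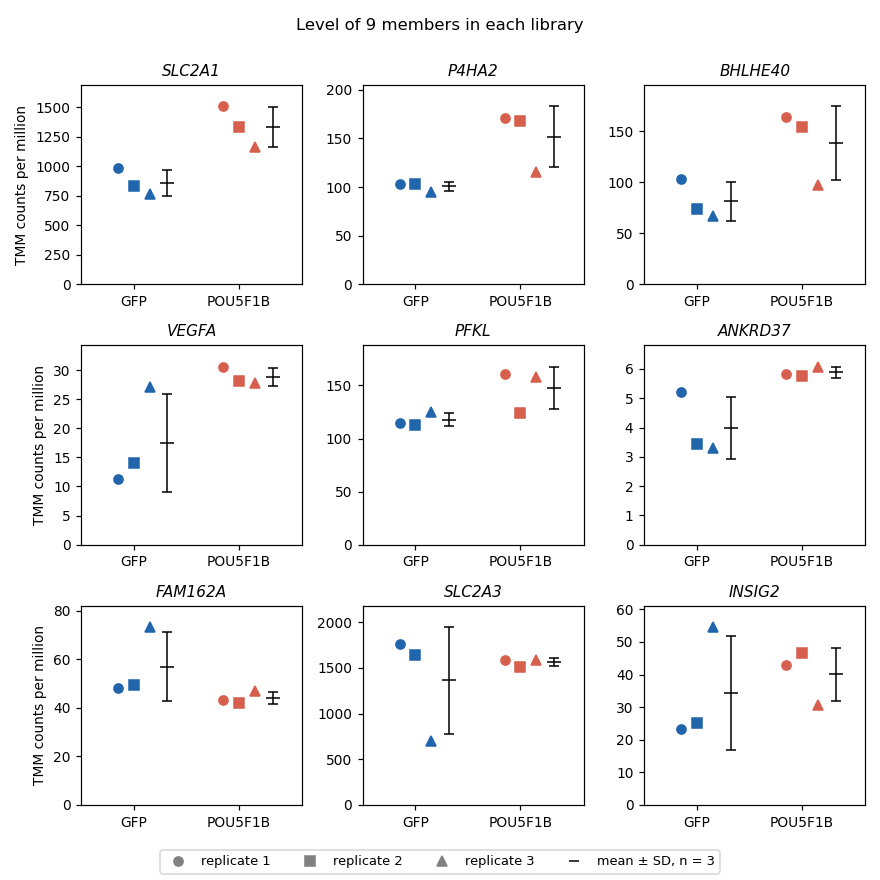
Level of 9 members in TMM CPM in each library, GFP in blue and POU5F1B in red, with a symbol for each replicate number and the mean with its SD (n = 3) in black. SLC2A1, P4HA2, VEGFA and ANKRD37 are higher and FAM162A lower in every POU5F1B library, and the triangle of GFP replicate 3 leaves its group in VEGFA, FAM162A, SLC2A3 and INSIG2.

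Export of acid and lactate keeps glycolytic cells from acidifying. SLC16A3 (MCT4), the lactate exporter, had 1145, 1258 and 577 counts in GFP and 1356, 936 and 1222 counts in POU5F1B libraries. Only GFP replicate 3 was low, and the log2 fold change was 0.34 ± 0.26 (SE) over all libraries and -0.01 over replicates 1 and 2. CA12, a carbonic anhydrase at the cell surface, had 30, 28 and 96 counts in GFP and 31, 33 and 340 counts in POU5F1B libraries. Its log2 fold change of 0.76 ± 1.04 (SE; adjusted p = 0.807, voom) came from POU5F1B replicate 3, which was 10.3-fold above the other POU5F1B libraries in CPM, and it was -0.37 without that library. CA9 had 11 to 29 counts per library and a log2 fold change of 0.27 ± 0.43 (SE; adjusted p = 0.843, voom), smaller than its standard error.

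Among the secreted signals, VEGFA had the largest log2 fold change of the members in the voom fit over all 6 libraries. CA12 had the largest with edgeR (1.38 against 0.72), DESeq2 (1.39 against 0.73) and the replicate block (1.04 against 0.77). The same held without GFP replicate 3 (1.35 against 1.17), without POU5F1B replicate 1 (1.43 against 0.78) and without POU5F1B replicate 2 (1.21 against 0.845). BHLHE40 had the largest without GFP replicate 1 (0.94 against 0.58) and without POU5F1B replicate 3 (1.00 against 0.857). VEGFA had 135, 184 and 312 counts in GFP and 389, 303 and 333 counts in POU5F1B libraries. GFP replicate 3, at 27.1 CPM, reached nearly to the POU5F1B range of 27.7 to 30.6 CPM, while GFP replicates 1 and 2 had 11.4 and 14 CPM. The log2 fold change was 0.83 ± 0.30 (SE; adjusted p = 0.357, voom). It was 1.20 ± 0.16 over replicates 1 and 2 (adjusted p = 0.000147, voom) and 1.17 ± 0.15 without GFP replicate 3 alone (adjusted p = 0.00747), past the threshold in both. ADM, adrenomedullin, a vasodilating peptide, had 201, 249 and 126 counts in GFP and 243, 163 and 209 counts in POU5F1B libraries, with overlapping ranges and a log2 fold change of 0.17 ± 0.25 (SE). ANGPTL4, an inhibitor of lipoprotein lipase, had the lowest log2 fold change in that voom fit. Its 27, 119 and 63 counts in GFP and 15, 23 and 76 counts in POU5F1B libraries overlapped widely, POU5F1B replicate 3 being 3.82-fold above the rest of its group in CPM, and the value was -0.95 ± 0.73 (SE; adjusted p = 0.644, voom).

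Of the mitochondrial and stress genes, FAM162A, a HIF target linked to mitochondrial cell death, was the only member whose POU5F1B libraries were all below its GFP libraries. It had 571, 651 and 843 counts in GFP and 549, 454 and 566 counts in POU5F1B libraries. In CPM the GFP libraries lay from 48.1 to 73.3 and the POU5F1B libraries from 42.1 to 47.1, with a log2 fold change of -0.34 ± 0.19 (SE; adjusted p = 0.529, voom). BNIP3L (NIX), a mitophagy receptor, had 905, 937 and 501 counts in GFP and 882, 876 and 573 counts in POU5F1B libraries. Replicate 3 was low in both groups, and the log2 fold change was 0.05 ± 0.28 (SE). Its paralogue BNIP3, a widely used hypoxia marker, had 6 counts in all 6 libraries together, at or under the floor of 3 counts in each, so no fold change is given; its share in the pair with BNIP3L, 1 of the 11 families compared, had an exact permutation p = 0.7 and rests on those counts. Its annotated pseudogenes held 83.3% of the counts of both. NDRG1, a stress-responsive gene, had a log2 fold change of 0.19 ± 0.34 (SE), with GFP replicate 3 2.17-fold under the rest of its group.

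Collagen modification was represented by prolyl 4-hydroxylase subunits, since the collagen lysyl hydroxylase PLOD2 and the lysyl oxidase LOX had 5 and 6 counts in all libraries together. P4HA2 (ENSG00000072682, GRCh37 chr5:131525840-131631008, minus strand) had 1229, 1354 and 1094 counts in GFP and 2177, 1813 and 1388 counts in POU5F1B libraries. The GFP libraries were tight at 95.2 to 104 CPM, and all POU5F1B libraries were above them, replicates 1 and 2 at 171 and 168 CPM and replicate 3 at 116 CPM. The log2 fold change was 0.57 ± 0.18 (SE; adjusted p = 0.306, voom), and 0.70 ± 0.08 over replicates 1 and 2 (adjusted p = 6.46e-05, voom), the smallest adjusted p of any member there. P4HA1 had 478, 484 and 533 counts in GFP and 655, 588 and 489 counts in POU5F1B libraries, at a log2 fold change of 0.24 ± 0.17 (SE) and 0.45 over replicates 1 and 2 (adjusted p = 0.00983, voom). P4HA2 held 44, 46.1 and 38.5% of the level per kb of both subunits in GFP and 50.4, 48.5 and 46.4% in POU5F1B libraries. These shares did not overlap either (exact two-sided permutation p = 0.1; 0.55 adjusted over the families), and the first-listed member of each of the other 9 families had p of 0.2 or more. Among members not listed first, the PFKM share of the phosphofructokinases did not overlap either, at 43.3, 43.9 and 45.4% in GFP and 36.8, 42.3 and 43.2% in POU5F1B libraries (exact two-sided permutation p = 0.1, outside the adjustment).

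All 5 nuclear and other regulators had positive log2 fold changes. BHLHE40 (DEC1), a transcriptional repressor of the clock and metabolism, had 1227, 963 and 767 counts in GFP and 2082, 1663 and 1168 counts in POU5F1B libraries. POU5F1B replicate 3, at 97.2 CPM, fell under GFP replicate 1, at 103 CPM, and the log2 fold change was 0.76 ± 0.25 (SE; adjusted p = 0.34, voom). ANKRD37, an ankyrin repeat protein induced by HIF1A, had 62, 45 and 38 counts in GFP and 74, 62 and 73 counts in POU5F1B libraries. The groups were separate in CPM (3.31 to 5.22 against 5.75 to 6.08), with a log2 fold change of 0.59 ± 0.25 (SE; adjusted p = 0.425, voom). INSIG2, which holds back sterol synthesis, had 23.3, 25.2 and 54.6 CPM in GFP and 42.8, 46.5 and 30.8 CPM in POU5F1B libraries. Its order was turned in replicate 3, and the log2 fold change was 0.32 ± 0.34 (SE) over all libraries and 0.86 ± 0.12 over replicates 1 and 2 (adjusted p = 0.000287, voom). The histone demethylase KDM3A and the MYC antagonist MXI1 had log2 fold changes of 0.21 and 0.12, and GFP replicate 3 was the highest library for both.

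GFP replicate 3 stood apart for many members. It was the highest or the lowest of the 6 libraries for 29 of 39 members (74.4%, against 63.8% of all tested genes). On the log2 scale it was more than 2-fold above the mean of GFP replicates 1 and 2 for 5 members (VEGFA, CA12, HK2, PDK3 and INSIG2; 12.8%, against 12.3% of all genes) and more than 2-fold below it for 2 (SLC2A3 and NDRG1; 5.13%, against 9.65%). The median deviation of the members from the mean over the 6 libraries was -0.09, -0.12 and -0.07 on the log2 scale in GFP replicates 1, 2 and 3 and 0.17, 0.07 and 0.05 in POU5F1B replicates 1, 2 and 3. For the other hypoxia members alone it was -0.19, -0.32 and 0.28 in the GFP libraries, so GFP replicate 3 lay with or above the POU5F1B libraries (0.22, 0.15 and 0.07), whereas for the glycolysis members the GFP libraries were at -0.07, -0.09 and -0.11. POU5F1B replicate 1 was the highest library for 14 of 39 members (35.9%, against 11.8% of all genes). GFP replicate 3 was the lowest for 19 (48.7%, against 29.2%) and the highest for 10 (25.6%, against 34.6%).

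**Figure D4:**
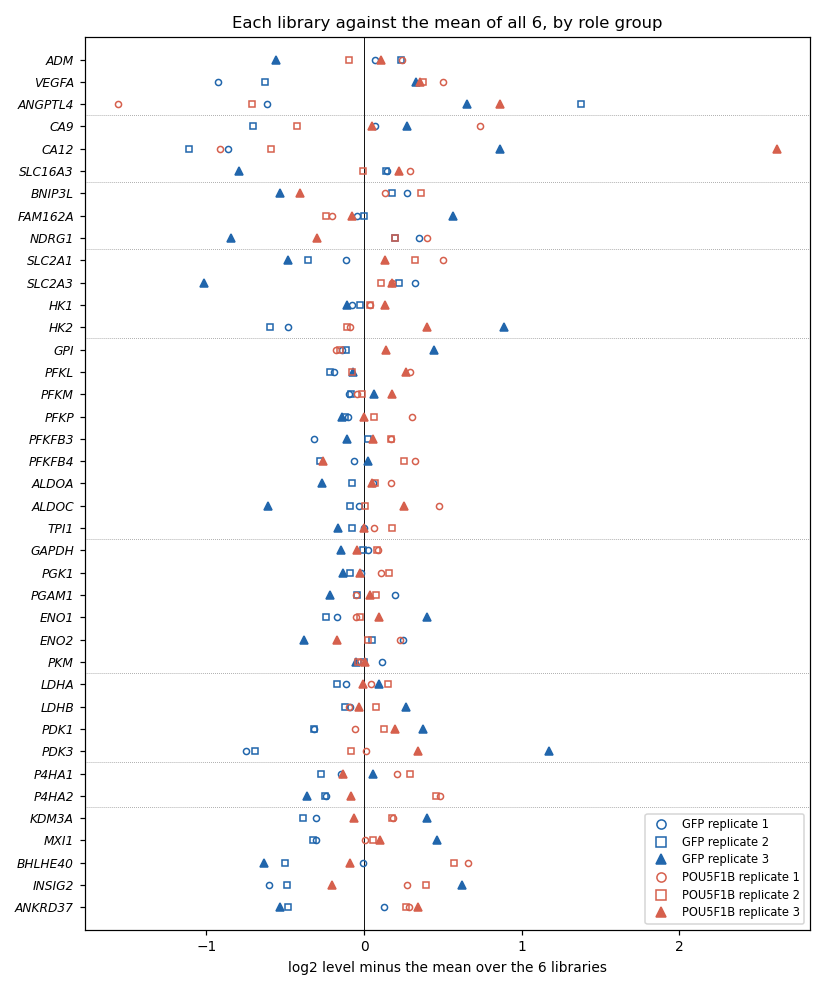
Log2 level of each tested member in each library minus the mean over the 6 libraries, GFP in blue and POU5F1B in red, with filled triangles for replicate 3 and dotted lines between role groups. The filled blue triangle of GFP replicate 3 is the outermost point of many rows, to the right for PDK3 and HK2 and to the left for SLC2A3 and NDRG1, and POU5F1B replicate 3 stands far right for CA12.

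Genes of neighbouring pathways, outside the 42, had log2 fold changes of both signs. Among 13 HIF regulators, 12 were tested, 5 with a positive and 7 with a negative log2 fold change, and none was past the threshold. Their groups did not overlap in 1 of the 12 with POU5F1B higher (8.33%, against 10.2% of all genes) and in 2 with POU5F1B lower (16.7%, against 9.24%). EPAS1 (HIF-2 alpha) had 1187, 1111 and 666 counts in GFP and 4419, 3745 and 4018 counts in POU5F1B libraries, with no overlap and a log2 fold change of 2.12 ± 0.19 (SE; adjusted p = 0.122, voom). HIF1A had 1104, 1214 and 1529 counts in GFP and 937, 904 and 602 counts in POU5F1B libraries, lower in every POU5F1B library, at a log2 fold change of -0.63 ± 0.24 (SE; adjusted p = 0.366, voom). CITED2, which competes with HIF for its coactivators, had 791, 734 and 199 counts in GFP and 215, 132 and 239 counts in POU5F1B libraries, and its groups overlapped through GFP replicate 3 (log2 fold change -1.33 ± 0.57, adjusted p = 0.426, voom).

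Of 30 other hypoxia-inducible genes, 27 were tested, with 12 positive and 15 negative values and a median of -0.06. The groups did not overlap in 2 of the 27 with POU5F1B higher (7.41%, against 10.2% of all genes) and in 3 with POU5F1B lower (11.1%, against 9.24%). The histone demethylase KDM4B and the lipid droplet protein HILPDA were among the latter, at -0.58 ± 0.20 and -0.45 ± 0.17 (SE, adjusted p = 0.353 and 0.376, voom). Of 39 other genes of glucose metabolism, 29 were tested, with 14 positive and 15 negative values and a median of -0.05. The groups did not overlap in 3 of the 29 with POU5F1B higher (10.3%, against 10.2% of all genes) and in 4 with POU5F1B lower (13.8%, against 9.24%). The smallest p-values there belonged to PDP1, a pyruvate dehydrogenase phosphatase (log2 fold change -0.67 ± 0.12, adjusted p = 0.184, voom), PDK4, its opposing kinase (-1.38 ± 0.34, adjusted p = 0.236), and the pentose phosphate enzyme TALDO1 (0.40 ± 0.11, adjusted p = 0.285), and the groups did not overlap for any of the 3. Of the genes named from these lists, EPAS1 (1.91), PDK4 (-1.49) and CITED2 (-2.08) were past the threshold over replicates 1 and 2. In full, 1 HIF regulator was past it higher and 1 lower, of 12 tested. Among the other hypoxia-inducible genes 2 were higher and 2 lower, of 27, and among the other glucose metabolism genes 1 and 2, of 29. Of all genes, 3.21% were past it higher and 5.15% lower.

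The HIF core motif, spelled here as ACGTG or GCGTG on either strand, was searched in the 250 bases before the start of each gene in the RefSeq promoter table (GRCh38.p14), which held 38 of the 42 members; the others were VEGFA, BNIP3L, NDRG1 and SLC2A3. At least 1 match was found for 26 of the 38 (68.4%), against 57.7% of the 10558 promoters of tested genes and 43.1% of all 27305 promoters. ACGTG alone was found for 19 (50%), against 23.5% and 18.7%. The E-box CACGTG, which holds ACGTG on both strands, was found for 6 of the 38 (15.8%), against 8.89% and 6.49%. Among the members whose groups did not overlap, 4 of 8 had a match of either kind, and among those whose groups overlapped 19 of 27. The sequences below belong to members whose groups did not overlap, taken at the ends of the order of log2 fold changes, with matches in capitals. FAM162A, the member with lower POU5F1B libraries, has 4 matches, 92, 84, 75 and 36 bases before its start, and neither SLC2A1 nor HK1 has one in this window. This is no contrast by direction, since among the other members with higher POU5F1B libraries ALDOC has 5 matches, ANKRD37 has 3, PFKFB3 has 1, and PFKP and P4HA2 have 0.
SLC2A1 (chr1:42958869-42959118, minus strand, 5′ to 3′): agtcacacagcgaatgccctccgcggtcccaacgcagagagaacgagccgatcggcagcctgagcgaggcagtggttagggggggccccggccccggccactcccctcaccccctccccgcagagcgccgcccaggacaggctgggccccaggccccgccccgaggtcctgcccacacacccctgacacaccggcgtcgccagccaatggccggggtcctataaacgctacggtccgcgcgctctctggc
HK1 (chr10:69269750-69269999, plus strand): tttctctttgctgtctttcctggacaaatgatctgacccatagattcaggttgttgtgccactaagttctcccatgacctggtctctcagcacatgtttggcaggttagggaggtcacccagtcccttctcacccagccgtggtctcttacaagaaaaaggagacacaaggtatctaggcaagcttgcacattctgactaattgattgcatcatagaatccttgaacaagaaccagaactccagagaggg
FAM162A (chr3:122383932-122384181, plus strand): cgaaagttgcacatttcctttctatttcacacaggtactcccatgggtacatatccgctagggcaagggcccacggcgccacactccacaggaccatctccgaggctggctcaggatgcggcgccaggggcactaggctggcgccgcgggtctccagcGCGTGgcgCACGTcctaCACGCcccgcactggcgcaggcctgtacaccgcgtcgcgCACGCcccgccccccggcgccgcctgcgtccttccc
A match describes these letters only, and the table holds 1 start per gene although HK1 has several.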

How the data were processed

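The authors deposited 1 table of raw counts per gene and library. Per the study's methods they mapped reads to hg19 with HISAT2 and counted uniquely mapped reads with featureCounts on genes and transposable elements. The strand setting and annotation release are not given in the sources used here, so counts of overlapping genes are uncertain, and unique mapping can lose reads from genes with close pseudogenes. Symbols and GRCh37 positions came from GENCODE 44 lifted to GRCh37.

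Low counts were removed by filterByExpr (edgeR 4.0.16), and libraries were scaled by TMM and tested with voom in limma 3.58.1 (R 4.3.3) over 3 GFP and 3 POU5F1B libraries without a block, with Benjamini-Hochberg adjustment. Log2 CPM used a prior count of 2. Isozyme shares were compared by exact permutation tests (Python 3.11.15). A floor of 3 counts equals 0.229 to 0.278 CPM and covers counting error only. DESeq2 1.42.0, edgeR, other scalings, filters, weights, the block and leaving out libraries were alternatives. The tests were tried on simulated counts with 200 genes changed 4-fold and no library set apart. That trial does not bear on differences under 2-fold or on a library like GFP replicate 3. Counts in all libraries are given for the 10 members with the smallest p, the 5 largest and 5 smallest log2 fold changes and the highest level per kb in each role group, except that CPM are given where only the remaining members are described; 3 genes with the smallest p are named per neighbouring list. The members, lists and naming rule were chosen with earlier results of these data known. Protein sequences were not used here. A gene outside the members that the naming rule selects is not reported here.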

Additional observations from a re-analysis of the deposited data

How the results depend on the processing

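The count of genes past the threshold, 0 by voom over the 6 libraries, was 232 with DESeq2, 1077 with sample quality weights, 4 with genes of at least 1 count in total, and 1194 with replicates 1 and 2 only, and ran from 0 to 595 when 1 library was left out, 595 being the count without GFP replicate 3 and 5 that without POU5F1B replicate 3. Members past the threshold were 0 except for 1 (VEGFA) under sample quality weights, over replicates 1 and 2 alone, and once GFP replicate 3 was left out, so leaving out 1 library gave 0 to 1. The replicate number as a block gave 1 gene (POU5F1B) and 0 members; correlations of same-numbered libraries were 0.242, 0.0883 and 0.165, and GFP replicate 2 correlated more with POU5F1B replicate 1 (0.25) than with its own number, so the numbers were not taken to pair the libraries. The median of the members stayed between 0.16 and 0.22 in all 15 alternatives. That of the glycolysis members was 0.18 with total counts and 0.12 to 0.17 with 1 library left out, against 0.14, and that of the other hypoxia members was 0.18 to 0.45, the highest under sample quality weights. The isozyme share of SLC2A1 differed by 13.2 percentage points over replicates 1 and 2 only, against 5.46. Of 479 log2 fold changes of the 32 named genes under alternatives, 18 had the opposite sign to the value over the 6 libraries. Under sample quality weights these were ADM (-0.018), BNIP3L (-0.070), SLC2A3 (-0.074) and LDHB (0.055), and over replicates 1 and 2 ADM (-0.083), SLC2A3 (-0.14), SLC16A3 (-0.0071) and LDHB (0.076). With 1 library left out, log2 fold changes ran from -0.073 to 0.35 for ADM, -0.37 to 1.43 for CA12, -0.21 to 0.28 for BNIP3L, -0.13 to 0.54 for SLC2A3, -0.23 to 0.051 for GPI, -0.090 to 0.0053 for PKM and -0.092 to 0.071 for LDHB; the sign was turned without GFP replicate 3 for all but CA12 (without POU5F1B replicate 3) and PKM (without GFP replicate 1), and also without POU5F1B replicate 1 for BNIP3L and LDHB and without POU5F1B replicate 2 for BNIP3L. The causes were not tested. Of the 39 tested members, 21 kept a positive and 2 (ANGPTL4 and FAM162A) a negative sign in all 16 settings, and 16 had both signs. Among these were HK2, ENO1, PDK3, PGAM1, ENO2, CA9, MXI1 and NDRG1, which are outside the 32 genes counted above. The same shares over all genes are not given here. Depth is low for ANGPTL4, CA9, ANKRD37 and ALDOC, with under 150 counts in every library, and for BNIP3, PLOD2 and LOX, which were at or near 0. It is also low for CA12, with 28 to 96 counts in every library but POU5F1B replicate 3, which had 340.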
